A study of Mus musculus with 73 samples.

Results

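Tnfrsf11b encodes osteoprotegerin, a secreted member of the tumor necrosis factor receptor superfamily that has no membrane anchor. The gene was taken as every array feature that carries the symbol Tnfrsf11b in the probe annotation, which gave 1 of 9596 features. It is therefore 1 gene among the 6777 measured on the first set of arrays and the 5768 measured on the second. Osteoprotegerin acts as a decoy: it binds RANKL, the product of Tnfsf11, and keeps it from its receptor RANK, the product of Tnfrsf11a. RANKL acting on RANK drives the formation of osteoclasts in bone, and in the mammary gland it carries the progesterone signal that makes alveolar epithelium grow. Osteoprotegerin also binds TRAIL, a death ligand encoded by Tnfsf10, and heparan sulfate chains such as those of syndecan-1, the product of Sdc1.

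The study hybridised mouse tumor and normal tissue RNA to 73 2-colour cDNA arrays, which fall into 16 groups. On 35 arrays a tissue labelled with Cy3 was set against Stratagene Universal Reference RNA labelled with Cy5, and these are called the reference arrays. They hold TRAMP (PB/SV40 T/t-antigen, probasin promoter) prostate tumors (n = 5) and seminal vesicle tumors (n = 6) with wild-type prostate and seminal vesicle (n = 4 each), all C57BL/6. They also hold C3(1)/SV40 T/t-antigen mammary tumors and CC10/SV40 T/t-antigen lung tumors with wild-type mammary gland and lung (n = 4 each), all FVB. The other 38 arrays set a mammary tumor labelled with Cy5 against wild-type mammary gland of the same strain labelled with Cy3, and are called the direct arrays. Their tumors are C3(1)/SV40 T/t-antigen (C3(1) Tag, n = 5, FVB), p53-/-;transplant (p53 null, n = 5, Balb/c), p53fp/fp;WAP-cre (p53 floxed, n = 4, C57BL6/129sv) and Brca1 Co/Co;MMTV-cre;p53 (Brca1 floxed, n = 5, C57BL6/129sv). The remaining direct tumors are oncogene models on FVB, namely MMTV-myc (n = 4) and, with 5 arrays each, MMTV-her2/neu, MMTV-ras and MMTV-PyMT. WAP and MMTV promoters direct expression to mammary epithelium. Large T antigen of SV40 is known to inactivate p53 and Rb, and the C3(1) promoter is active in mammary as well as prostate epithelium. The labels do not say whether the C3(1) Tag tumors of both sets were the same tumors.

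Values are log2 ratios, sample over reference RNA on the reference arrays and tumor over normal gland on the direct arrays. Tnfrsf11b had a value on 34 of 35 reference arrays, with none for seminal vesicle tumor replicate 1, and on 33 of 38 direct arrays. The missing direct arrays were p53 null replicate 3, C3(1) Tag replicate 4, MMTV-her2/neu replicate 2 and MMTV-PyMT replicates 1 and 4, and the fits left them out for this gene. Normal prostate arrays carried skeletal muscle transcripts, with a list mean of -0.15 to 0.21 in prostate tumors and 3.76 to 4.80 in normal prostate. Mammary tissue carried them as well, at -0.22 to 3.38 in normal mammary gland and 0.13 to 2.28 in mammary tumors. On the direct arrays, tumor over normal gland, the list mean ran from -4.74 to -0.97. Whether the replicates are different animals is not labelled, and a p-value here reflects only how far these samples spread. In bulk tissue, fewer cells of a type and less RNA per cell cannot be told apart.

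Tnfrsf11b was high in the SV40 mammary tumors, and in no other tissue group. The 4 mammary tumors had log2 ratios of 1.88, 2.32, 1.91 and 2.18 (mean 2.08 ± 0.21, SD, n = 4), while the 4 normal mammary glands had -0.35, -0.38, -0.50 and -0.14 (mean -0.34 ± 0.15, SD, n = 4). The groups did not overlap, and the tumors held 4.22 times the level of the reference RNA. The difference, mammary tumor minus normal, was 2.42 ± 0.15 (SE) on the log2 scale, a 5.35-fold higher level in the tumors. It was the 7th largest rise among 6771 genes tested in mammary gland, where 16.6% of genes rose and 20.1% fell at an adjusted p under 0.05. The gene was chosen by these measured values, the rise in the mammary tumors of the reference arrays, so they are a description and carry no test. The other 30 reference arrays with a value, normal mammary gland among them, lay between -0.87 and 0.50.

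In the other 3 organs the tumors did not differ from their normal tissue beyond the spread between arrays. Lung tumors had -0.34, -0.15, -0.27 and -0.38, against 0.01, -0.03, 0.09 and -0.43 in normal lung. The difference was -0.19 ± 0.15 (SE), with a limma adjusted p of 0.339 and an exact two-sided permutation p of 0.2. The groups overlapped through normal lung replicate 4, which was lower than all lung tumors. In lung, 16.2% of genes rose and 20.4% fell.

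Seminal vesicle tumors replicates 2 to 6 had -0.45, 0.50, -0.35, -0.16 and -0.07, against -0.40, -0.12, -0.35 and -0.15 in normal seminal vesicle. The difference was 0.15 ± 0.14 (SE), with a limma adjusted p of 0.418 and an exact two-sided permutation p of 0.556, where 23.3% of genes rose and 20.2% fell. Replicate 3 of these tumors, at 0.50, was the highest array outside the mammary tumors. Prostate tumors had -0.38, -0.73, -0.87, -0.65 and -0.84, against -0.66, -0.65, -0.42 and -0.25 in normal prostate. The groups overlapped, and the difference was -0.20 ± 0.14 (SE), with a limma adjusted p of 0.236 and an exact two-sided permutation p of 0.175. In prostate 29.2% of genes rose and 32.2% fell.

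**Figure D1:**
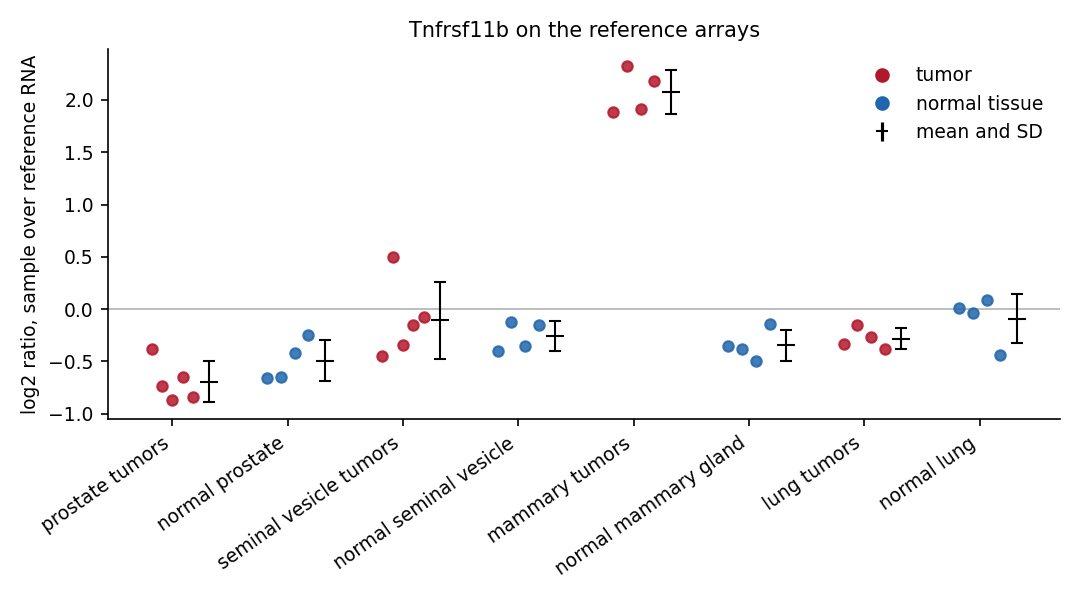
Tnfrsf11b log2 ratio (sample over reference RNA) on each of the 34 reference arrays with a value, for tumors (red) and normal tissue (blue) of 4 organs. Points are arrays and the black mark beside them is the mean with its SD. The 4 mammary tumors sit between 1.88 and 2.32, and the other 30 arrays between -0.87 and 0.50.

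Ordered by mean log2 ratio, the 8 tissue groups ran from mammary tumors (2.08) to normal lung (-0.09 ± 0.23), seminal vesicle tumors (-0.11 ± 0.37), normal seminal vesicle (-0.26 ± 0.14), lung tumors (-0.28 ± 0.10), normal mammary gland (-0.34), normal prostate (-0.49 ± 0.20) and prostate tumors (-0.69 ± 0.20). The step below mammary tumors, 2.17 between means, was the only one in which the arrays of neighbouring groups did not overlap. Among normal tissues, lung exceeded prostate by 0.40 ± 0.15 (SE; limma adjusted p = 0.0334), in a comparison where 40.5% of genes passed. That call was lost when normal prostate replicate 1 or 2 or normal lung replicate 1, 2 or 3 was left out, with adjusted p up to 0.103. Normal lung minus normal seminal vesicle was 0.16 ± 0.15 (adjusted p = 0.368, 57.2% of genes passed) and normal prostate minus normal seminal vesicle was -0.24 ± 0.15 (adjusted p = 0.194, 50.1% passed). The tumor change did not pass in any pair of the organs other than mammary gland. It differed by 0.01 ± 0.21 between lung and prostate (adjusted p = 0.985, 41.2% of genes passed), by -0.34 ± 0.21 between lung and seminal vesicle (adjusted p = 0.207, 35.4% passed) and by -0.35 ± 0.20 between prostate and seminal vesicle (adjusted p = 0.164, 46.7% passed). Strain and organ cannot be told apart between the C57BL/6 and the FVB pair.

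Mammary tumors and glands also differed in the markers of several cell types. Of all genes, 16.6% rose and 20.1% fell there. The mitosis list rose in 13 of 13 genes, with an array mean of -0.21 to 0.20 in mammary tumors and -1.67 to -1.55 in normal mammary gland. It rose as well in 13 of 13 genes in lung, 12 of 13 in prostate and 10 of 13 in seminal vesicle, where Tnfrsf11b did not pass. In seminal vesicle 2 mitosis genes fell, and after quantile normalization 4 rose and 1 fell. Adipocyte markers fell in 9 of 9 genes, with array means of 0.44 to 1.99 in mammary tumors and 3.36 to 3.84 in normal gland. Endothelial markers fell in 6 of 9 genes (array means of 0.35 to 0.58 in mammary tumors and 1.13 to 1.50 in normal gland), lymphocyte markers in 9 of 10 (-0.37 to -0.12 in mammary tumors and 0.32 to 0.85 in normal gland) and milk protein genes in 6 of 7, with 1 higher (0.40 to 2.36 in mammary tumors and 2.96 to 3.66 in normal gland). Luminal epithelial markers rose in 5 of 9 genes, with array means of 1.28 to 1.58 in mammary tumors and 0.18 to 1.20 in normal gland. Osteoblasts are the textbook source of osteoprotegerin, and of 9 osteoblast and bone matrix genes the 1 that passed in mammary tumors fell, the parathyroid hormone receptor Pth1r (-0.78 ± 0.10 SE, limma adjusted p = 2.15e-07). The array means of that list overlapped, at -0.58 to -0.28 in mammary tumors and -0.35 to -0.20 in normal gland. The part of these lists in the Tnfrsf11b difference was not tested.

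The mammary tumors on the direct arrays divided by model. Tnfrsf11b passed as higher than normal gland in the C3(1) Tag model and in the 3 models with p53 in their genotype, and in none of the 4 MMTV oncogene models by limma, at an unadjusted p under 0.05 as well. C3(1) Tag tumors had log2 ratios of 0.21, 3.00, 0.51 and 2.27, with 2 arrays near normal gland and 2 far above it. Their mean of 1.50 ± 0.40 (SE), a 2.83-fold rise, passed with a limma adjusted p of 0.00272, where 46.2% of genes passed. Without replicate 2 the mean was 1.00 and the adjusted p 0.0776. The model was the one in which the reference arrays showed the rise, so this second set is a repeat of the same kind of tumor and not independent support.

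The 3 p53 and Brca1 models do not carry SV40 antigens. p53 null transplants had 1.57, 2.27, 2.94 and -0.07, with 3 arrays above 1.5 and replicate 5 level with normal gland. The mean was 1.68 ± 0.40 (SE; 3.20-fold, limma adjusted p = 0.00299, 14.4% of genes passed), and without replicate 4 it was 1.26 with an adjusted p of 0.0651. p53 floxed WAP-cre tumors had 2.84, 1.95, 4.35 and 1.88, and the 4.35 of replicate 3 was the highest Tnfrsf11b ratio in the series. Their mean was 2.75 ± 0.40 (SE; 6.74-fold, adjusted p = 4.02e-06, 22.7% of genes passed). Brca1 floxed tumors had 3.09, 1.60, 0.78, 0.52 and 1.74, all above normal gland as deposited. Their mean was 1.55 ± 0.36 (SE; 2.92-fold, limma adjusted p = 0.000657, 46.9% of genes passed). Replicate 4 of these tumors, at 0.52, had an array median of 0.44, and was at 0.08 with the array centred on its median.

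The oncogene models lay at or below the level of normal gland. MMTV-ras tumors had -0.34, -0.17, 0.53, -0.13 and 0.08, on both sides of 0 (mean -0.01 ± 0.36 SE, limma adjusted p = 0.993, 20.2% of genes passed). MMTV-PyMT tumors had -0.45, -0.48 and 0.25 (mean -0.23 ± 0.46 SE, adjusted p = 0.760, 21.2% passed). MMTV-myc tumors had 0.00, 0.08, -0.22 and -0.88 (mean -0.25 ± 0.40 SE, adjusted p = 0.698, 23.5% passed). MMTV-her2/neu tumors had -0.45, -0.94, -0.76 and -0.65, all below 0 (mean -0.70 ± 0.40 SE, adjusted p = 0.235, 17.5% passed). With the spread of the MMTV-her2/neu arrays alone the adjusted p was 0.00158.

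**Figure D2:**
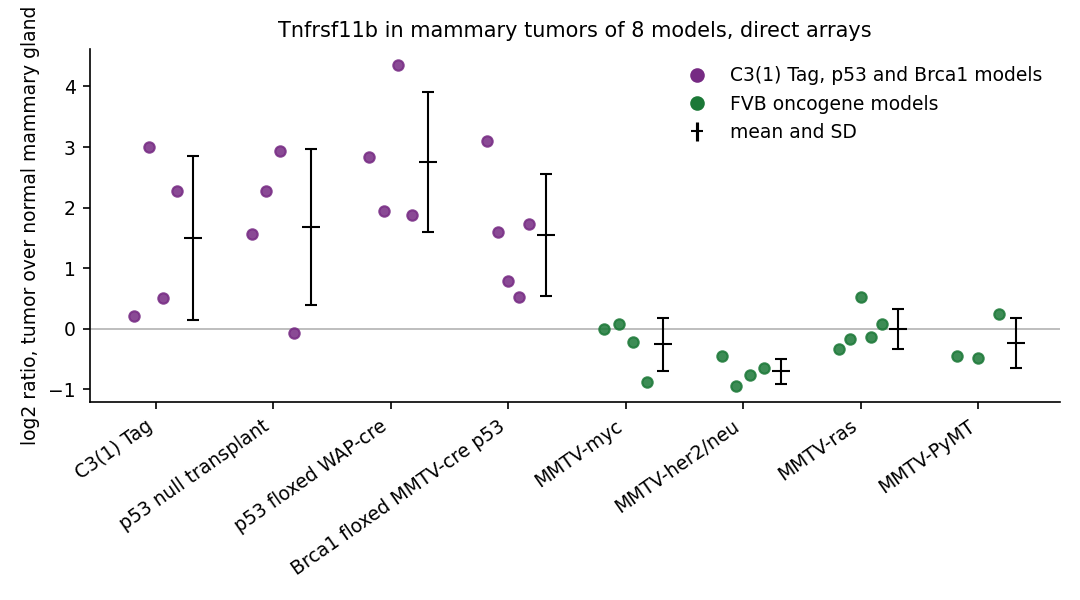
Tnfrsf11b log2 ratio (tumor over normal mammary gland) on each of the 33 direct arrays with a value, by mouse model. Purple points are the C3(1) Tag, p53 and Brca1 models, green points the FVB oncogene models, and the black mark is the mean with its SD. Of the 17 purple arrays 13 lie above the highest green array, at 0.53.

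Across the 8 models the difference passed with an F of 8.94 (limma adjusted p = 0.000113), in a test that 43.0% of genes passed. The mean of the 3 p53 and Brca1 models exceeded the mean of the 4 oncogene models by 2.29 ± 0.30 (SE), a 4.89-fold difference (adjusted p = 1.41e-06). In that contrast 6.67% of genes were higher and 13.7% lower, and Tnfrsf11b was the 2nd largest difference upward of 5768 genes. Of the 13 p53 and Brca1 arrays, 11 lay above the highest of the 16 oncogene arrays, and a two-sided permutation test over the arrays gave 2e-05, the smallest that 100000 resamples can give. That test shuffles single arrays, and the limma contrast also takes its spread from arrays within models. With 3 models against 4, neither p-value measures how far models of a kind differ. Strain cannot be told apart from model here, since the p53 and Brca1 tumors were not on FVB.

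C3(1) Tag tumors share the FVB strain with the oncogene models. Their mean was higher than that of the 4 oncogene models by 1.80 ± 0.45 (SE), a 3.47-fold difference (limma adjusted p = 0.00602, exact two-sided permutation p = 0.00206, n = 4 and 16). The gene was chosen by its rise in tumors of the C3(1) Tag model, so the contrast is not independent support. Here too the p-values count arrays and not models. In that contrast 16.3% of genes were higher and 1.30% lower, the median gene was 0.26 higher, and with each array centred on its median the difference was 1.50 (adjusted p = 0.0243). It was the 13th largest difference upward of 5768 genes. Of the 4 C3(1) Tag arrays 2 lay above every oncogene array, and the call was lost without C3(1) Tag replicate 2 (1.30, adjusted p = 0.0869) or replicate 5 (1.54, adjusted p = 0.0568).

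Array numbers fall into runs of neighbours, split where a gap exceeds 20, and the labels do not say what a run is. In each of the 4 runs that hold both, the C3(1) Tag array was above the mean of the oncogene arrays, by 3.51, 0.97, 0.38 and 2.19. With runs as a random block the C3(1) Tag contrast was 1.87 (limma adjusted p = 0.00263) and the p53 and Brca1 contrast 2.29 (adjusted p = 5.79e-05). The p53 null, p53 floxed and Brca1 floxed means kept their calls in that fit, with adjusted p of 0.0207, 0.00118 and 0.00802. The p53 and Brca1 models lie in runs of their own, so run and model cannot be told apart there.

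Differences among the 4 models with high Tnfrsf11b did not pass. C3(1) Tag minus the p53 and Brca1 models was -0.49 ± 0.46 (SE; limma adjusted p = 0.438, 27.6% of genes passed). Brca1 floxed minus p53 floxed, on the same strain, was -1.20 ± 0.54 (adjusted p = 0.133, 12.6% passed), and p53 null minus p53 floxed was -1.07 ± 0.57 (adjusted p = 0.581, 0.121% passed). Among the oncogene models, MMTV-myc minus the mean of the other 3 was 0.06 ± 0.46 (adjusted p = 0.979, 0.243% passed), and centring each array turned its sign (-0.13). In the order of model means all neighbouring models overlapped in their arrays, and the widest step, 1.50, lay between C3(1) Tag and MMTV-ras.

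Some cell type markers differed between these sets of models too. Of all genes, 16.3% were higher and 1.30% lower in the C3(1) Tag contrast. In the p53 and Brca1 contrast 6.67% were higher and 13.7% lower. Mitosis genes were higher in C3(1) Tag than in the oncogene models for 9 of 11 genes (4 with each array centred, 3 after quantile normalization), and in the p53 and Brca1 models for 5 of 11 (9 with each array centred, 7 after quantile normalization), so the scaling sets which contrast holds more. The array mean of the list was 0.48 to 1.89 in C3(1) Tag, 1.08 to 2.29 in Brca1 floxed, -0.06 to 1.03 in p53 floxed and 0.36 to 0.66 in p53 null tumors, against 0.18 to 0.85 in MMTV-myc, 0.02 to 0.44 in MMTV-her2/neu, 0.22 to 0.79 in MMTV-ras and 0.00 to 0.95 in MMTV-PyMT tumors. Skeletal muscle genes were lower in the p53 and Brca1 models for 9 of 12 genes (1 after quantile normalization). Adipocyte genes were lower for 4 of 9, and after quantile normalization 1 was lower and 2 were higher. By limma 0 genes of either list passed in the C3(1) Tag contrast, and 0 had an unadjusted p under 0.05 (after quantile normalization 1 adipocyte gene was lower). Of 8 luminal markers 2 were lower in the p53 and Brca1 contrast and 1 in the C3(1) Tag contrast, where the list median was 0.04 and, at an unadjusted p under 0.05, 2 were higher and 2 lower. Such small counts are not a result about the luminal list. The luminal gene with the smallest p in both contrasts was Gata3, a luminal transcription factor, at -1.69 ± 0.18 (SE, limma adjusted p = 2.15e-08) in the p53 and Brca1 contrast and -0.92 ± 0.26 (adjusted p = 0.0129) in the C3(1) Tag contrast. The part of these lists in the Tnfrsf11b contrasts was not tested.

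Within models, arrays with more mitosis transcripts had more Tnfrsf11b. After each model's mean was taken off, Pearson r between Tnfrsf11b and the mitosis list was 0.76 and Spearman rho 0.75 over the 17 arrays of the C3(1) Tag, p53 and Brca1 models. Without the 2 arrays farthest from the median, r was 0.73 over 15 arrays. Over the 16 oncogene arrays, where Tnfrsf11b was low, r was 0.75 and rho 0.69. These are ratios as deposited. A correlation between the array median and Tnfrsf11b was not computed over those 16 arrays, so whether the 2 move together there is not known. MMTV-ras replicate 3 was at 0.53 with an array median of 0.63, and at -0.11 once centred. MMTV-myc replicate 3 was at -0.22 with an array median of 0.52, and at -0.74 once centred. The part of such shifts of whole arrays was not tested. The mitosis list was not the closest of the 14 marker lists over the 17 arrays, since a list of lung epithelial genes had an r of 0.83. Basal and luminal lists had 0.47 and 0.48, adipocyte and fibroblast lists -0.15 and -0.04, and the array median 0.28. Points share the normal gland RNA of their strain and, in part, an array run, and these correlations are given as a description.

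**Figure D3:**
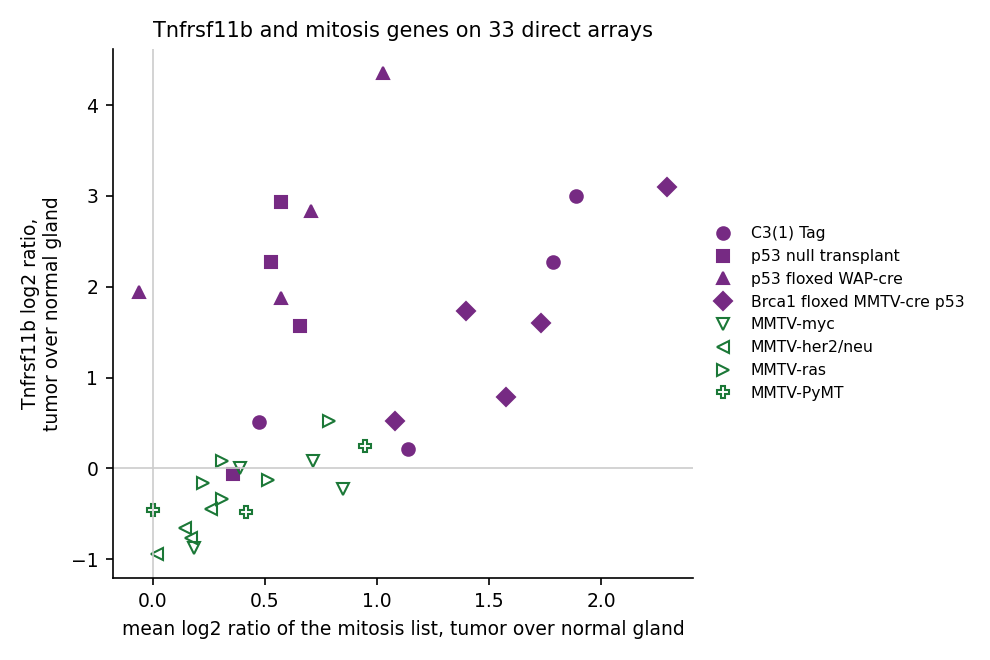
Tnfrsf11b log2 ratio against the mean log2 ratio of the mitosis list, both tumor over normal mammary gland, on the 33 direct arrays with a Tnfrsf11b value. Filled purple symbols are the C3(1) Tag, p53 and Brca1 models and open green symbols the oncogene models. Several p53 floxed and p53 null arrays have high Tnfrsf11b at a mitosis mean that oncogene arrays also reach. Brca1 floxed arrays, at 1.08 to 2.29, and C3(1) Tag replicates 1, 2 and 5 lie above the highest oncogene mitosis mean, 0.95. The part of mitosis in the Tnfrsf11b difference was not tested.

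The ligand that osteoprotegerin neutralises moved the other way in the mammary tumors of the reference arrays. Tnfsf11 (RANKL) had log2 ratios of 0.67, 0.63 and 0.56 in mammary tumors, against 2.29, 2.74, 2.57 and 0.46 in normal mammary gland. The fall was -1.39 ± 0.29 (SE; limma adjusted p = 0.000442), and normal gland replicate 4 lay below all 3 tumor values. Without that array the difference was -1.91 ± 0.14 (SE; adjusted p = 3.27e-11). RANKL was near the reference RNA in the other organs, where tumor minus normal was -0.01 ± 0.27 in seminal vesicle (adjusted p = 0.986) and -0.00 ± 0.32 in lung (adjusted p = 0.999). It was not tested in prostate, where normal tissue held 2 values.

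On the direct arrays the fall of Tnfsf11 was small. p53 floxed tumors had a mean of -0.62 ± 0.17 (SE; limma adjusted p = 0.00753), and the other 7 models, which did not pass, lay between -0.43 and -0.05. In C3(1) Tag tumors Tnfsf11 was at -0.05 ± 0.15 (adjusted p = 0.820), while the same model on the reference arrays showed the fall given above. With each array centred, C3(1) Tag was at -0.38 and passed (adjusted p = 0.0213), as did Brca1 floxed, MMTV-myc, MMTV-ras and MMTV-PyMT. Tnfsf11 did not differ by test between the sets of models. The C3(1) Tag contrast was 0.29 (adjusted p = 0.249) and the p53 and Brca1 contrast -0.06 (adjusted p = 0.768). Tnfrsf11a and Tnfsf10 were not analysed here.

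Sdc1, the heparan sulfate proteoglycan syndecan-1, rose with Tnfrsf11b in the mammary tumors but was not restricted to them. It had 1.28, 0.87, 1.56 and 1.35 in mammary tumors, against -1.42, -0.86, -0.71 and -0.55 in normal mammary gland, without overlap (2.15 ± 0.15 SE, limma adjusted p = 1.18e-12). It rose as well in seminal vesicle tumors (0.96 ± 0.14 SE, adjusted p = 2.49e-06) and lung tumors (0.72 ± 0.15 SE, adjusted p = 0.000307), and was at -0.05 in prostate (adjusted p = 0.780). Sdc1 rose in all 8 direct models, by 3.15 in C3(1) Tag, 1.51 in p53 null, 2.79 in p53 floxed and 3.03 in Brca1 floxed tumors, and by 0.84 to 1.11 in the oncogene models. The C3(1) Tag contrast was 2.18 ± 0.31 (SE; adjusted p = 1.66e-05) and the p53 and Brca1 contrast 1.48 ± 0.22 (SE; adjusted p = 6.01e-06).

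The mouse TRAIL death receptor Tnfrsf10b fell in every organ. Its tumor minus normal difference was -1.38 ± 0.21 (SE) in lung, -0.79 ± 0.19 in seminal vesicle, -0.74 ± 0.20 in prostate and -0.61 ± 0.21 in mammary gland, with limma adjusted p of 2.61e-06, 0.00114, 0.00148 and 0.0198. On the direct arrays it fell in p53 null (-0.50, adjusted p = 0.0131) and p53 floxed tumors (-0.76, adjusted p = 0.00243) and was at -0.32 in Brca1 floxed tumors (adjusted p = 0.0659). The p53 and Brca1 contrast was -0.46 ± 0.12 (SE; adjusted p = 0.00368), and the C3(1) Tag contrast 0.12 (adjusted p = 0.617). Tnfrsf23, a mouse decoy receptor for TRAIL, was higher in the p53 and Brca1 models than in the oncogene models by 0.95 ± 0.17 (SE; adjusted p = 0.000107), and in mammary tumors than in normal gland by 0.47 (adjusted p = 0.0348).

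Of the other 2 measured partners, Thbs1 encodes the matrix protein thrombospondin-1 and Lgr4 a receptor that also binds RANKL. Thbs1 rose in mammary tumors by 1.16 ± 0.31 (SE; limma adjusted p = 0.00333) and in seminal vesicle tumors by 1.42 ± 0.28 (SE; adjusted p = 0.000164), and the oncogene models reached 1.43 in MMTV-myc and 1.49 in MMTV-PyMT. Lgr4 fell in prostate (-0.58 ± 0.15 SE, adjusted p = 0.00142) and seminal vesicle (-0.57 ± 0.15 SE, adjusted p = 0.00204). In all, of the 6 measured ligands, receptors and binding partners 3 rose and 2 fell in mammary tumors, beside 16.6% and 20.1% of all genes. In lung 1 rose and 1 fell, beside 16.2% and 20.4% of all genes. In seminal vesicle 2 rose and 2 fell (23.3% and 20.2% of all genes), and in prostate 2 of 5 fell (32.2%). In the C3(1) Tag contrast 1 was higher, beside 16.3% of all genes. In the p53 and Brca1 contrast 2 were higher and 1 lower, beside 6.67% and 13.7% of all genes. Counts from so few genes are not a result about the set.

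**Figure D4:**
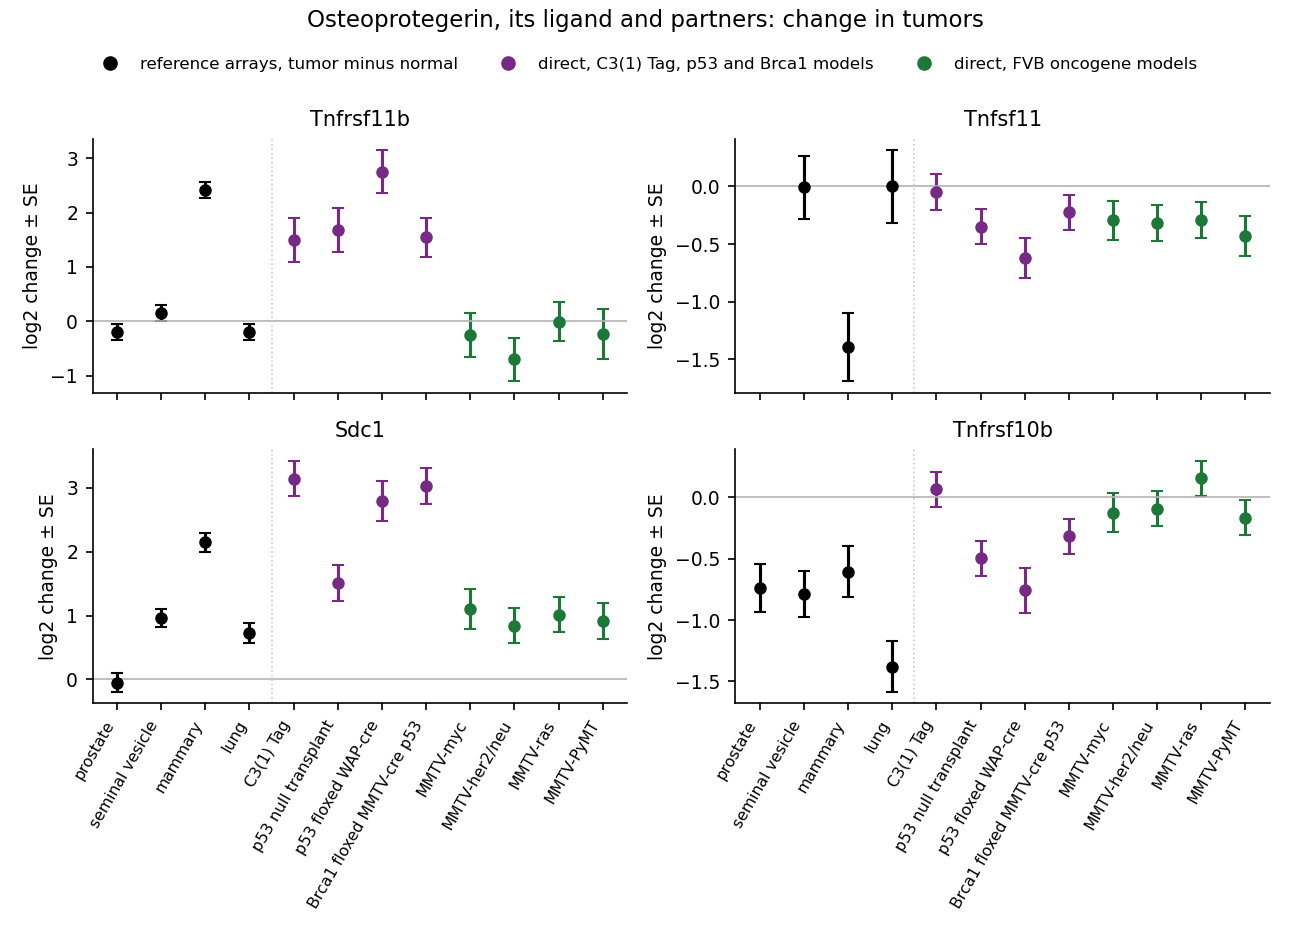
Log2 change ± SE of Tnfrsf11b, its ligand Tnfsf11, its binding partner Sdc1 and the TRAIL receptor Tnfrsf10b. Black points are tumor minus normal on the reference arrays, and purple and green points are tumor over normal mammary gland on the direct arrays. Tnfsf11 in prostate was not tested. In the Sdc1 panel all 8 direct models lie above 0, whereas in the Tnfrsf11b panel the 4 purple models do and the 4 green ones do not.

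Of 17 measured genes of RANK signalling, 2 rose and 4 fell in mammary tumors, where 16.6% of all genes rose and 20.1% fell. The list median was -0.12 beside -0.02 for all genes, and the counts lay near the share of all genes, so they are not a result about the pathway. Traf5, a TRAF adaptor, fell by 0.61 (SE 0.12, limma adjusted p = 0.000229). Nfatc1, the master transcription factor of osteoclasts, rose by 0.55 (SE 0.13, adjusted p = 0.000984) and the kinase Map3k7 (TAK1) by 0.46 (SE 0.14, adjusted p = 0.00911). The counts were 2 higher and 2 lower in lung, 6 and 2 in seminal vesicle (1 and 2 after quantile normalization) and 4 and 4 in prostate. For this and the lists that follow, the shares of all genes higher and lower were 16.2% and 20.4% in lung, 23.3% and 20.2% in seminal vesicle, 29.2% and 32.2% in prostate, 16.3% and 1.30% in the C3(1) Tag contrast and 6.67% and 13.7% in the p53 and Brca1 contrast. In the C3(1) Tag contrast 3 of 16 were higher (1 with each array centred), led by Map3k7 at 0.98 ± 0.19 (SE; adjusted p = 0.00073), and in the p53 and Brca1 contrast 2 were higher (4 with each array centred) and 2 lower. Of 4 osteoclast genes 2 fell in mammary tumors, the secreted protease Mmp9 (-2.18 ± 0.32 SE, adjusted p = 1.89e-06) and the integrin subunit Itgb3 (-0.36 ± 0.11 SE, adjusted p = 0.0123).

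Of 7 measured genes of the hormone and RANKL response of mammary epithelium 1 rose and 3 fell in the mammary tumors, beside 16.6% and 20.1% of all genes. The list median was -0.52 beside -0.02 for all genes. Cited1, a coregulator of the estrogen receptor, fell by 1.35 (SE 0.26, limma adjusted p = 0.000105), the ligand Wnt4, which progesterone induces, by 0.52 (SE 0.16, adjusted p = 0.0121), and the lactation factor Stat5a, named after its value was seen, by 0.67 (SE 0.25, adjusted p = 0.0295). Id2, an inhibitor of helix-loop-helix factors that RANKL signalling engages in mammary epithelium, rose by 0.73 (SE 0.20, adjusted p = 0.00474). Ccnd1, the cyclin D1 gene, was lower in C3(1) Tag tumors than in the oncogene models (-1.72 ± 0.34 SE, adjusted p = 0.000824), the 1 of 3 tested genes of the list to pass there. In the p53 and Brca1 contrast 2 of 3 were lower, Stat5a (-0.45, adjusted p = 0.0211) and Id2 (-0.67, adjusted p = 0.0400). The list had 2 higher and 1 lower in lung, 3 and 1 in seminal vesicle and 1 and 3 in prostate.

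In the TRAIL death pathway 1 of 10 genes rose and 3 fell in mammary tumors, beside 16.6% and 20.1% of all genes, so the counts say nothing particular to the list. Cytochrome c (Cycs) fell by 1.23 (SE 0.19, limma adjusted p = 3.57e-06), and the caspase inhibitors Birc3 and Birc2 by 0.64 (SE 0.13, adjusted p = 0.000303) and 0.54 (SE 0.12, adjusted p = 0.000614). In lung 2 fell, in seminal vesicle 3 rose, and in prostate 3 rose and 4 fell. In the C3(1) Tag contrast the adaptors Tradd (0.84, adjusted p = 0.00111) and Fadd (0.71, adjusted p = 0.00543) were higher. With each array centred 1 of them passed, Tradd, and after quantile normalization 0 did, with limma adjusted p of 0.0526 for Tradd and 0.169 for Fadd. In the p53 and Brca1 contrast Birc3 was higher (0.48, adjusted p = 0.0318), and with each array centred 2 genes were.

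Of 8 other receptors of the TNF superfamily 2 rose and 1 fell in mammary tumors, which is close to the 16.6% and 20.1% of all genes. They were Tnfrsf9 (0.68, limma adjusted p = 0.0103), Tnfrsf1b (0.39, adjusted p = 0.0295) and Tnfrsf4 (-0.42, adjusted p = 0.000506). In lung 3 fell, in seminal vesicle 2 rose and 3 fell (1 and 1 after quantile normalization), and in prostate 2 rose and 2 fell (1 and 3 after quantile normalization). Of the 7 receptors tested, 0 passed by limma in either contrast between models, with 2 higher at an unadjusted p under 0.05 in the C3(1) Tag contrast and 0 in the p53 and Brca1 contrast. With each array centred, 1 was lower in the C3(1) Tag contrast. Of 5 ligands 2 rose in mammary tumors, and Lta, the lymphotoxin alpha gene, rose there by 1.97 ± 0.14 (SE; adjusted p = 1.18e-12). Lta rose in every other organ too, by 2.30 in lung, 0.94 in seminal vesicle and 2.10 in prostate. The ligand list had 1 higher and 2 lower in lung, and 1 and 1 in both seminal vesicle and prostate. In the C3(1) Tag contrast 4 of 5 ligands were higher (1 with each array centred), and Lta by 1.28 ± 0.19 (SE; adjusted p = 2.37e-05), while in the p53 and Brca1 contrast 0 of 5 passed by limma, and 0 had an unadjusted p under 0.05.

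Osteoprotegerin is a known target of canonical Wnt signalling in bone, and 15 genes of the pathway were measured. In mammary tumors 7 rose and 3 fell, beside 16.6% and 20.1% of all genes, with a median of 0.23 beside -0.02 for all genes. The Wnt target Ccn4 rose by 0.97 (SE 0.22, limma adjusted p = 0.000522), whereas Axin2, a feedback inhibitor used as a readout of the pathway, fell by 0.83 (SE 0.19, adjusted p = 0.000599) and the transcription factor Lef1 by 0.78 (SE 0.17, adjusted p = 0.000387). Lung had 1 higher and 6 lower, seminal vesicle 6 and 1 (3 and 2 with each array centred), and prostate 3 and 5. In the p53 and Brca1 contrast Axin2 was higher (0.64 ± 0.18 SE, adjusted p = 0.00734) and Ccn4 lower (-0.52, adjusted p = 0.0387), with 2 of 13 higher and 1 lower. In the C3(1) Tag contrast 2 of 13 were higher, Tcf7l2 (0.94, adjusted p = 0.00441) and Apc (0.85, adjusted p = 0.00594), and after quantile normalization Tcf7l2 had an adjusted p of 0.0506.

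The genes whose pattern was most like that of Tnfrsf11b over the 34 reference arrays were Crabp2, a retinoic acid binding protein (Pearson r = 0.87), Cd109 (0.85), Lxn (0.83), Frmd7 (0.82), Vdr, the vitamin D receptor (0.82), and Stk26 (0.81), among 6736 genes. Their Spearman rho was lower, at 0.27 to 0.57. Crabp2 averaged 1.94 in mammary tumors and 0.17 in normal gland, and Vdr 1.63 in mammary tumors and -0.10 in normal gland. The most opposite genes were Prpf6 (-0.73), Foxa1, a luminal transcription factor (-0.71), and Tle4 (-0.71). After each group's mean was taken off, the highest were Timp1, an inhibitor of matrix proteases (0.78), Wt1 (0.72), Acot12 (0.68) and Ccl7, a chemokine (0.68).

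Over the 33 direct arrays other genes came closest. They were Skp2, the ubiquitin ligase subunit that marks the inhibitor p27 for degradation (r = 0.81, rho = 0.81), Vmp1 (r = 0.81, rho = 0.87), Sap30 (0.78), Cyrib (0.78), Gtf2ird1 (0.78) and Col18a1, a basement membrane collagen (0.77), among 5581 genes. Skp2 averaged 0.80 in C3(1) Tag, 0.69 in p53 null, 0.65 in p53 floxed and 0.83 in Brca1 floxed tumors, against -0.28 to 0.37 in the oncogene models. Vmp1 ranked 78th of 6736 on the reference arrays (r = 0.67) and Lxn 115th of 5581 on the direct arrays (r = 0.57), whereas Crabp2 had an r of 0.01 on the direct arrays. The most opposite genes were Ccng1 (-0.63), Ap4s1 (-0.63) and Car3, a carbonic anhydrase of fat and muscle (-0.62). Ccng1, a target gene of p53, averaged -1.02 in C3(1) Tag, -1.03 in p53 null, -1.96 in p53 floxed and -3.46 in Brca1 floxed tumors, against -0.12 to 0.73 in the oncogene models. On the reference arrays Ccng1 had an r of -0.04 with Tnfrsf11b. These correlations share arrays of the same groups and are given as a description.

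**Figure D5:**
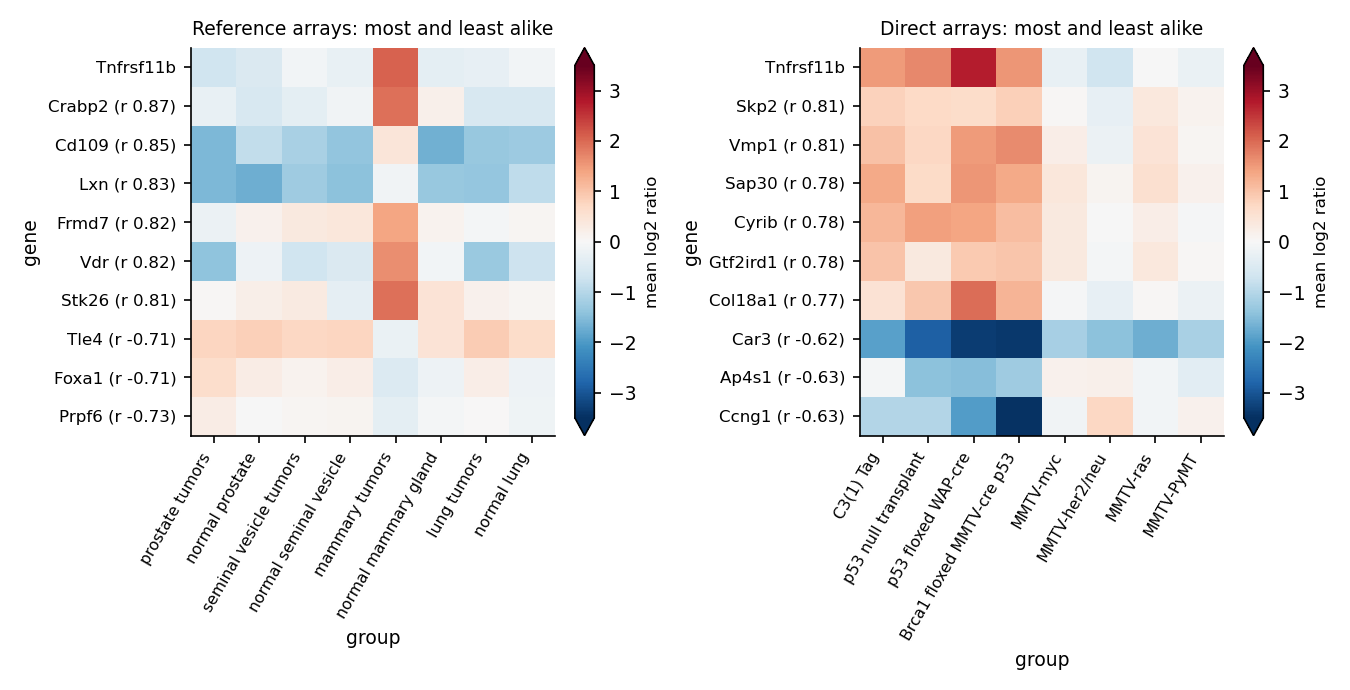
Mean log2 ratio by group of Tnfrsf11b and of the 6 most and 3 least similar genes, on the reference arrays (left) and the direct arrays (right), with Pearson r over arrays after each name. Red is above and blue below the other channel, on a scale that ends at 3.5. On the left the likeness lies in the mammary tumor column, and on the right in the 4 columns of the C3(1) Tag, p53 and Brca1 models.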

How the data were processed

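The deposited values are log2 ratios that the authors made, 1 per feature and array. Image analysis, background correction and normalization are not given in the sources used here, nor are the base and direction of the ratio. Read as log2, the interaction rule of the series text gave 2633 features (3764 for natural and 4168 for base 10 logarithms), the nearest to the number stated there. Direction was checked on tissue markers (7 of 7 lung genes in normal lung, and 9 of 9 adipocyte and 6 of 7 milk protein genes in normal mammary gland, were above the mean of the other normal tissues). Dyes were fixed within each set with no swap, and a dye effect would remain in the direct ratios. Array medians ran from -0.05 to 0.01 on reference and from -0.42 to 0.66 on direct arrays, which were used as deposited. The number of arrays limits the precision.

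Features with 1 gene symbol (7486, of which 7395 were updated through gene ID) were averaged per gene. Groups were fitted with limma 3.58.1 (lmFit, eBayes) in R 4.3.3, separately for the reference and direct arrays, on genes with at least 3 values in each group, with Benjamini-Hochberg adjustment over all genes and a threshold of 0.05. Direct models were tested against 0, which leaves out the spread of normal gland. Permutation tests used SciPy 1.17.1. The fitting code was tested on simulated data.

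The gene and all lists were chosen with earlier results of these data known. Named genes were Tnfrsf11b, its ligands and receptors, up to 3 passing genes with the smallest p per list and comparison, and the genes of highest and lowest correlation. Same-numbered replicates did not deviate together (correlations of -0.24 to 0.22 on the reference arrays, and a median of -0.00 over 127 pairs on the direct arrays), so the numbers were not treated as pairs. Alternatives were another scaling, other arrays in the fit, blocks for replicate number and array run, and leaving out single arrays.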

Additional observations from a re-analysis of the deposited data

Results flagged for a closer look

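The Tnfrsf11b ratio differed between mammary tumor models by tests of the difference itself. The C3(1) Tag contrasts, and in part the F, rest on the model in which the gene was chosen. They are not independent support. The F over 8 models was 8.94 (limma adjusted p = 0.000113). The mean of the 3 p53 and Brca1 models minus the mean of the 4 oncogene models was 2.29 on the log2 scale, and C3(1) Tag minus the 4 oncogene models was 1.80. C3(1) Tag minus the mean of MMTV-her2/neu, MMTV-ras and MMTV-PyMT was 1.81 (limma adjusted p = 0.0068), and with array runs as a fixed factor it was 2.07 (adjusted p = 0.00214). In 15 groups of 4 or 5 values, 0 held an array far from the others by Dixon's criterion, which flags about 1 in 20 groups by chance, and MMTV-PyMT with 3 values was not examined.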

How the results depend on the processing

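The contrast of the p53 and Brca1 models with the oncogene models ranged from 2.15 to 2.36 over the alternatives and from 2.11 to 2.48 when single arrays were left out, past the threshold each time. Under quantile normalization the mammary difference was 2.68 (2.34 to 2.49 without single arrays), normal lung minus normal prostate was 0.30 (adjusted p = 0.151) and MMTV-myc minus the other oncogene models -0.044, with -0.13 for arrays centred. In the MMTV-her2/neu arrays alone the mean of -0.70 passed (adjusted p = 0.00158). Tnfrsf10b in C3(1) Tag tumors was at -0.27 with arrays centred, and at 0.07 as deposited. Causes were not tested.

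With the replicate number as a block, normal lung minus normal prostate was 0.37 (adjusted p = 0.350) and the lung minus prostate tumor change -0.030, and no other call changed among the comparisons between groups or models fitted with the block. The block was not run for single direct models over normal gland or for C3(1) Tag minus the mean of MMTV-her2/neu, MMTV-ras and MMTV-PyMT. C3(1) Tag minus the oncogene models was then 1.74 (adjusted p = 0.0129) and the p53 and Brca1 contrast 2.29 (adjusted p = 8.35e-06). Without single arrays, normal lung minus normal prostate ranged from 0.34 to 0.52, the lung minus prostate tumor change from -0.11 to 0.085, C3(1) Tag from 1.00 to 1.93, p53 null from 1.26 to 2.26, MMTV-ras from -0.14 to 0.078, MMTV-myc minus the other oncogene models from -0.056 to 0.26 and C3(1) Tag minus the oncogene models from 1.30 to 2.22. Of 153 other alternatives 146 left the result as reported. The 7 that did not include the mammary difference under quantile normalization, which moved in size but kept its direction.

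MMTV-PyMT without 1 array, and a fit of genes with a value on every array, gave no value, since Tnfrsf11b is missing on 1 reference and 5 direct arrays. Runs as a fixed factor could not be fitted with MMTV-myc. The alternatives on array runs, on partner genes and lists under other scalings, on a model's own arrays and on Tnfsf11 without 1 array were chosen after seeing the data. Spot intensities were not analysed here, so how weak the signal behind a ratio was is unknown.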
